A study of Rattus norvegicus with 2 samples.

Results

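The genes described here encode interleukins, members of the tumour necrosis factor (TNF) superfamily, a small set of interferons, and the receptors for all of these. Members were taken by gene symbol from the array's platform annotation, and a probe set entered only when the annotation gave it exactly 1 gene. This gave 112 probe sets for 85 genes, out of 14217 genes in all. By role they comprised 36 ligands, 42 signalling receptors and 7 antagonists or decoy receptors that bind a cytokine or occupy its receptor without signalling. The cells were microglia, the resident macrophages of the brain, of Sprague Dawley background, grown in DMEM with foetal calf serum. The resting group had no exposure (1 array) and the other spent 3 h without oxygen and glucose (oxygen-glucose deprivation, OGD; 1 array), which models ischaemia in a dish. The labels give neither the age of the animals nor whether cells were pooled. Each condition had 1 array, so no difference below has a replicate check, a test or an error across cultures.

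Cytokines of these families act by bringing receptor chains together on the cell surface. Most interleukin and interferon receptors have no enzyme activity of their own and signal through JAK kinases and STAT transcription factors, often with a private chain that binds the ligand and a shared chain that transmits the signal. Receptors of the interleukin-1 family signal through MyD88 and IRAK kinases, and TNF receptors recruit TRAF adaptors or death-domain proteins that lead to NF-kB activation or cell death. Microglia are both a source of such cytokines, among them TNF and interleukin-1, and a target of them.

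Values are intensities, linear summaries of 1 probe set on 1 array. The floor of measurement was the median of all non-control probe sets, an intensity of 19.6 at rest and 19.7 after OGD, and a gene was called measured when its brightest probe set was above the floor on at least 1 array. Differences are log2 OGD minus log2 resting, after values under the floor were set to it. Of the microglial and myeloid markers 14 of 16 could be matched, all 14 were measured, and 13 were lower on the OGD array. Of all 9580 measured genes 4915 were lower and 4103 higher. Among the 14 markers 9 lay within 1.1-fold, and the 1 past 1.2-fold, C1qc, was higher, at 26.3 and 32.3. The summed intensity was 1473 at rest and 1412 after OGD. The largest terms were Trem2 (604 and 583) and Cd68 (371 and 360). Astrocyte markers were near the floor, with 3 of 7 measured and all 3 higher on the OGD array (sum of all 7, 118 at rest and 140 after OGD). Gfap was at 27.4 and 36.9 and Slc1a2 at 23.8 and 32.0, while Aldh1l1, Slc1a3, Aqp4 and S100b were under the floor on both arrays. For lymphocytes 3 of 7 markers were measured, all 3 higher on the OGD array (sum of the 6 matched markers 167.0 at rest and 180 after OGD). Cd4 was the brightest, at 67.2 and 72.9, and whether it came from lymphocytes was not tested. Nkg7 was at 33.2 and 34.2 and Cd3e at 24.3 and 26.2, while Cd3g, Cd8a and Ms4a1 were under the floor on both arrays. The other lists had measured markers on both sides, and their sums run over all matched markers, also those under the floor. Among measured markers 1 was higher and 2 lower for fibroblasts (sum 224 and 214) and for the oligodendrocyte lineage (139 and 141). For neurons (221 and 222) and for endothelium (157 and 163) 1 was higher and 1 lower. The part of other cells in the differences below was not tested, and fewer cells of a type cannot be told apart from less RNA per cell.

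No member differed by 1.5-fold, the threshold in the series' design text. Of the 46 measured members 0 passed 1.5-fold in either direction, against 0.115% of all 9580 measured genes (0.0731% higher and 0.0418% lower). At so low a background a count of 0 among 46 genes is nothing particular to the members. The highest value relative to rest was that of Ifngr2, the signalling chain of the interferon gamma receptor, at 1.43-fold, and the lowest was that of Il6st, the gp130 chain shared by receptors of the interleukin-6 family, at 1.31-fold lower. At a descriptive 1.2-fold, 4 members were higher (Ifngr2, Il2rg, Il7r and Il17b) and 2 were lower (Il6st and Il1rap). That is 13.0% of the measured members, against 7.53% of all measured genes, with 3.56% of all genes higher and 3.97% lower. All 6 had intensities under 39.2 on both arrays. At the higher floor of 39.2 at rest all 6 drop out, so the count of 0 members past 1.2-fold there was fixed by that floor. The share of all genes past 1.2-fold at that floor was 5.195%. With values averaged over all probe sets of a gene 2 were higher (Il2rg and Il17b) and 0 lower. That is 4.35% of members, beside 4.88% of all genes. Averages were taken after values under the floor were set to it, so a probe set under the floor pulls its gene towards 0. Il2rg and Il17b have 1 probe set each, while Ifngr2, Il7r, Il6st and Il1rap have others under the floor. This setting therefore cannot decide whether the share of members is higher. The median difference of the 46 members was 0, beside -0.0076 over all measured genes.

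**Figure D1:**
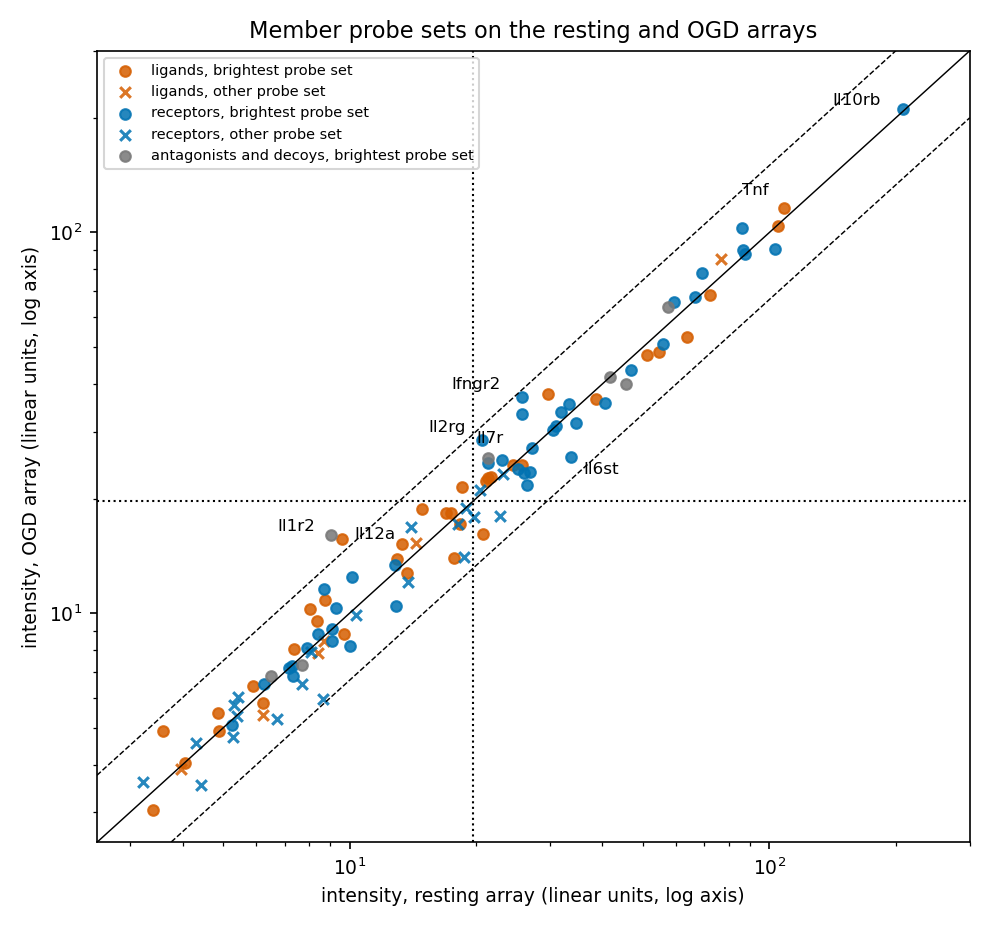
Intensity of each of the 112 member probe sets at rest (horizontal, log axis) and after OGD (vertical, log axis), coloured by role, with circles for the brightest probe set of a gene and crosses for its other probe sets. The solid line marks equal intensity, the dashed lines 1.5-fold and the dotted lines the floors of 19.6 and 19.7. Every probe set above both floors lies between the dashed lines, and Il1r2 and Il12a lie beyond them under the floor.

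Receptors were measured more often than ligands. Of the 42 receptors 27 were measured (64.3%), all on both arrays, and of the 36 ligands 15 (41.7%), of which 13 on both arrays, beside 67.4% of all genes. Probe sets differ in how well they report their gene, so these shares describe this array and were not tested. In the TNF superfamily 4 of 11 ligands and 8 of 16 receptors were measured. Among interleukins 11 of 23 ligands and 16 of 22 receptors were. Neither interferon on the list was measured: Ifng, the gene of interferon gamma, was at 3.59 and 4.89, and Ifnb1, that of interferon beta, at 13.7 and 12.8. The receptor genes for these interferons were above the floor in 3 of 4 cases. The size of the gap rests on the floor, while its direction was the same at the lower and the higher floor. At a floor on the 30th percentile of each array 33 of 42 receptors (78.6%) and 26 of 36 ligands (72.2%) were measured, beside 11857 of all 14217 genes. At the higher floor of 39.2 it was 11 receptors (26.2%) and 6 ligands (16.7%), beside 6641 of all 14217 genes. Both shares lay below that of all genes at either of these floors.

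**Figure D2:**
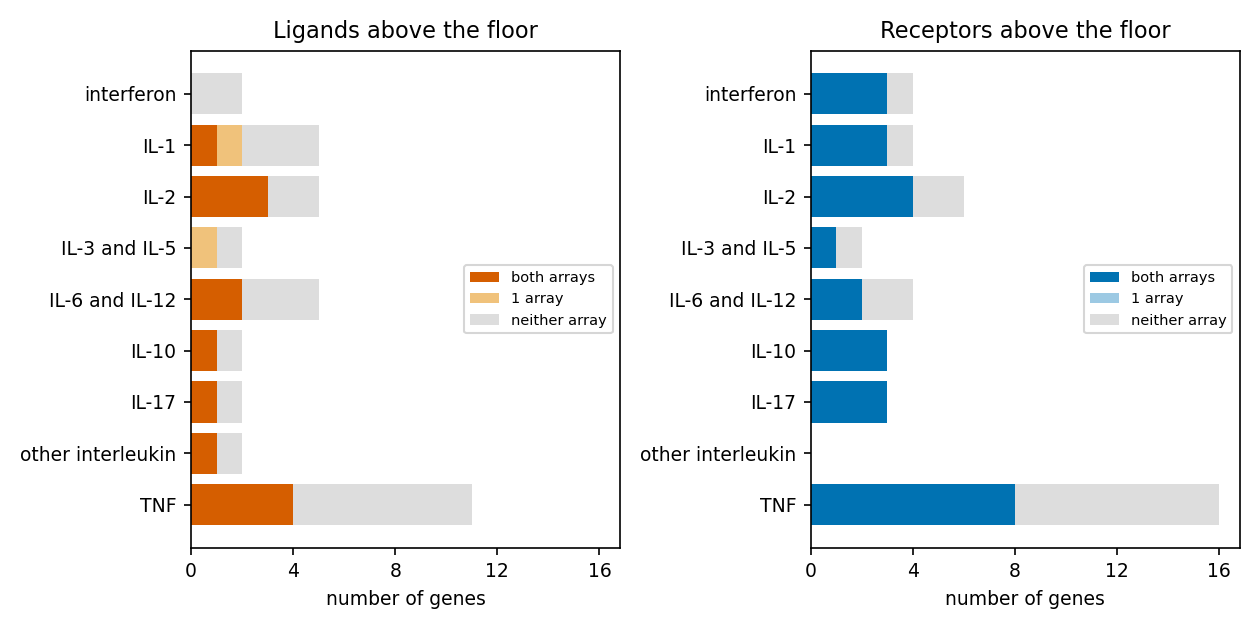
Number of ligand genes (left) and receptor genes (right) in each family, split by whether the brightest probe set was above the floor on both arrays, on 1 array or on neither. The IL-10 and IL-17 families have all 3 of their receptors above the floor, the interferons have 0 of 2 ligands and 3 of 4 receptors, and the TNF superfamily 4 of 11 ligands and 8 of 16 receptors.

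Ligands and receptors had nearly the same centre and differed more in spread. The median difference was -0.012 for the 15 measured ligands and 0.011 for the 27 measured receptors. Of the ligands 6 were higher, 8 lower and 1 equal, and of the receptors 14 were higher, 11 lower and 2 equal. The share higher was thus 40% for ligands and 51.9% for receptors, beside 42.8% of all measured genes. Ligand differences ran from -0.26 to 0.35 and receptor differences from -0.39 to 0.52, though a range widens with the number of genes. The SD of the differences was 0.144 for ligands and 0.216 for receptors, beside 0.149 for all measured genes. Past 1.2-fold were 1 of 15 ligands and 5 of 27 receptors, beside the 7.53% of all genes. With the lower floor the ligand median was 0.054, so its sign rests on the floor. A total of 12 ligands and 14 receptors lay within 1.1-fold.

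The interferon receptor chains were all higher on the OGD array where measured. These genes are neighbours: in the RefSeq gene table of assembly GRCr8 the protein-coding genes Ifnar2, Il10rb, Ifnar1 and Ifngr2 follow each other on chromosome 11 with no other between them. The 250 bases before the annotated start of each of these 4, and of Il2rg, the gene next to Ifngr2 in size of difference, are shown because they are the upstream sequences of a neighbouring group of receptors and of the largest differences on the higher side. The sequences are from RefSeq, build GRCr8, at chr11:44099520-44099769 (+ strand) for Ifnar2, chr11:44132386-44132635 (+) for Il10rb, chr11:44211519-44211768 (+) for Ifnar1, chr11:44265453-44265702 (+) for Ifngr2 and chrX:70439001-70439250 (- strand) for Il2rg, written 5′ to 3′ along the gene. Capitals mark matches, on either strand, to the hypoxia response core (ACGTG or GCGTG), the interferon-gamma-activated site TTCNNNGAA and the degenerate kappa B consensus.
Ifnar2: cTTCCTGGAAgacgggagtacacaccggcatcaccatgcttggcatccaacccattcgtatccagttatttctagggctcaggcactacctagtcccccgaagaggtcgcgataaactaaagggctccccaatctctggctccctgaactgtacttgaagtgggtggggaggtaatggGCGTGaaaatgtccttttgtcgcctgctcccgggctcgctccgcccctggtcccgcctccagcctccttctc
Il10rb: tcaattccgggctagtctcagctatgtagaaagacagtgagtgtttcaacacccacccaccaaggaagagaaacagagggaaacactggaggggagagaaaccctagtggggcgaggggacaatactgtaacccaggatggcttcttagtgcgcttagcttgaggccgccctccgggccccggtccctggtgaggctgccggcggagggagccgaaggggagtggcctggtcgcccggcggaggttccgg
Ifnar1: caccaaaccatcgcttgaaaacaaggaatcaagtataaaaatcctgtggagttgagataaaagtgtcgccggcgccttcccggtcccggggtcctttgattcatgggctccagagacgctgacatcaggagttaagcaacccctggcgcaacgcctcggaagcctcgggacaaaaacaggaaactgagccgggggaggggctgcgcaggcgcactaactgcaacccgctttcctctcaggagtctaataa
Ifngr2: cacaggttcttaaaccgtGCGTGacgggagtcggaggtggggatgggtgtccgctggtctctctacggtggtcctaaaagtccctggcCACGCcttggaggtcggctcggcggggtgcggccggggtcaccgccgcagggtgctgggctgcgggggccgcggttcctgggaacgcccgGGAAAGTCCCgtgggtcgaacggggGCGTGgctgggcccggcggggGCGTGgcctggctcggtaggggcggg
Il2rg: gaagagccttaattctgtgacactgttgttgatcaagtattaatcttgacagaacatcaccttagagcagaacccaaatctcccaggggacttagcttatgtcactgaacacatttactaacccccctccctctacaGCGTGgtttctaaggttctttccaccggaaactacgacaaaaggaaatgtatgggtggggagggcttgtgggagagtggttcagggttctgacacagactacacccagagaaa
Ifngr2 held 4 matches to GCGTG and 1 to the kappa B motif, Ifnar2 held 1 to GCGTG and 1 to the interferon-gamma-activated site, Il2rg held 1 to GCGTG, and Il10rb and Ifnar1 held none of the 4 motifs. No capitals overlap between motifs in these windows. Over all 33469 RefSeq windows of this length, 25.9% held GCGTG, 16.6% ACGTG, 7.67% the interferon-gamma-activated site and 4.24% the kappa B motif. Counted by gene, with any of its windows, the shares were 28.4%, 18.1%, 8.19% and 4.61% of 27457 genes. Windows were found for 64 of the 85 member genes, of which 16 held GCGTG, 8 ACGTG, 6 the interferon-gamma-activated site and 8 the kappa B motif (Ifngr2, Il1rap, Il6, Lta, Ltb, Fas, Il27ra and Tnfrsf8). A match is a stretch of letters and not a bound site.

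Ifngr2, which carries the signal of interferon gamma into the cell beside the binding chain Ifngr1, had an intensity of 25.7 at rest and 36.9 after OGD. The log2 difference was 0.52, which ranked 26 by size among the 9580 measured genes. Its other probe set was under the floor on both arrays, at 18.1 and 17.2, and did not share the direction. Averaged with it, after it was set to the floor, the difference was 0.26, just inside the 1.2-fold line. The binding chain Ifngr1 was under the floor at 8.70 and 11.5 and is given no fold. Ifnar1, a chain of the receptor for type I interferons, was at 86.0 at rest and 102.4 after OGD, 1.19-fold higher. That was the brightest of its 6 probe sets, and the only other one above the floor on an array, at 19.7 and 17.9, had a difference of -0.0055. The other 4 were under the floor and were set to it, and the mean over all 6 gave 0.043. Ifnar2, the partner chain of Ifnar1, was at 21.3 and 24.7, 1.16-fold higher and close to the floor on both arrays. Il10rb, the chain shared by receptors for interleukin-10, interleukin-22 and type III interferons, lies between these genes and was the brightest member, at 208.3 at rest and 211.0 after OGD, 1.01-fold higher. The neighbours thus had differences of 0.21, 0.019, 0.25 and 0.52 in their order along the chromosome.

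Receptors of the interleukin-2 family, which share the common gamma chain, held the next largest values on the higher side. Il2rg, the common gamma chain used by receptors for interleukins 2, 4, 7, 9, 15 and 21, was at 20.7 at rest and 28.4 after OGD, 1.37-fold higher, with its resting value just above the floor. Il7r, the chain that binds interleukin-7, was at 25.8 and 33.3, 1.29-fold higher, and its other probe set was under the floor at 3.22 and 3.60. Averaged over both, with the dimmer set to the floor, the difference was 0.19, under the 1.2-fold line. As deposited the dimmer probe set had a difference of 0.16, also on the higher side. Il4r, the interleukin-4 receptor chain through which microglia and macrophages are driven to alternative activation, was at 66.7 and 67.7, 1.01-fold higher. Il9r was at 26.04 and 23.39, 1.11-fold lower. The chains that bind interleukin-2 with high affinity were under the floor, Il2ra at 9.08 and 8.47 and Il2rb at 12.9 and 10.4. So Il2rg and Il7r were both higher while the other measured receptors of this family lay within 1.12-fold.

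Of the ligands of this family 3 of 5 were measured. Il15, a ligand made by macrophages that sustains natural killer and memory T cells, was at 54.5 and 48.7, 1.12-fold lower. Il4 was at 21.1 and 22.2 and Il13, its close relative, at 21.7 and 22.7, both within 1.06-fold of rest. Il2 and Il7 were under the floor on both arrays. Il13ra2, a decoy that takes up interleukin-13, was at 21.4 at rest and 25.5 after OGD, 1.19-fold higher. Probe sets assigned to both Il13ra1 and its pseudogene were not used.

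Il6st had the largest difference on the lower side. The gp130 protein it encodes transmits the signal of interleukin-6, interleukin-11 and related cytokines. Its intensity was 33.6 at rest and 25.7 after OGD, 1.31-fold lower. A second probe set was at 22.8 and 18.0, under the floor after OGD and so at least 1.16-fold lower, while the remaining 2 were under the floor and went in opposite directions. Averaged over all 4 probe sets, with values under the floor set to it, the difference was -0.15, inside the 1.2-fold line. Il6, the main inflammatory ligand of this receptor, was under the floor at 6.23 and 5.79, and so was its binding chain Il6r at 12.8 and 13.4. Il11 was at 38.7 and 36.4, 1.06-fold lower, and its receptor chain Il11ra1 at 23.1 and 25.2, 1.09-fold higher. Il12b, the p40 subunit of interleukins 12 and 23, was at 21.3 and 22.6, whereas the partner subunits Il12a and Il23a were under the floor on both arrays.

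In the interleukin-1 family the accessory receptor chain was lower and the main ligands were under the floor. Il1rap, the chain that interleukin-1, interleukin-33 and interleukin-36 receptors all need for signalling, was at 26.4 at rest and 21.7 after OGD, 1.22-fold lower, with its second probe set under the floor. With the second probe set at the floor, the difference averaged over both was -0.14. It was -0.21 with a pseudocount, and each value is inside the 1.2-fold line. Il1r1, the receptor that binds interleukin-1, had 3 probe sets and all were under the floor, between 5.95 and 8.66. Il1a was at 13.0 and 13.8 and Il1b at 14.9 and 18.7, both under the floor, so neither is given a fold. Il18, an inflammasome-processed ligand of this family, was measured at 72.1 and 68.5, 1.05-fold lower. Il1rn, the secreted antagonist of interleukin-1, was at 45.5 and 40.0, 1.14-fold lower. Il36rn, which blocks the interleukin-36 receptor, was at 57.2 and 63.7, 1.11-fold higher. Il18bp, which binds and neutralises interleukin-18, had 41.8 on both arrays. Il33, an alarmin released by damaged cells, was above the floor after OGD only, at 18.5 and 21.4, so it was at least 1.09-fold higher. Its other probe set was under the floor on both arrays, at 6.21 and 5.41. The receptor gene Il1rl1 was at 33.4 and 35.4, with its other probe set under the floor at 13.8 and 12.1. As deposited, the dimmer probe sets of Il33 and Il1rl1 did not share the direction of the brighter.

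Tnf, the ligand for which microglia are best known in brain injury, was among the brightest members and lay within 1.2-fold in both of its probe sets. The brighter was at 108.4 at rest and 116.1 after OGD, 1.07-fold higher, and the other at 76.7 and 85.2, with a difference of 0.15. Tnfrsf1a, the widely expressed TNF receptor with a death domain, was at 69.2 and 78.1, 1.13-fold higher. Tnfrsf1b, the other TNF receptor, was listed at 7.19 on both arrays, under the floor. Both probe sets of the ligand and that of the measured receptor were therefore on the higher side, each by less than 1.2-fold.

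TWEAK, the ligand encoded by Tnfsf12, and its receptor Fn14, encoded by Tnfrsf12a, were both on the lower side. Tnfsf12 was at 63.7 at rest and 53.2 after OGD, 1.198-fold lower and just inside the 1.2-fold line. Tnfrsf12a was at 103.2 and 90.7, 1.14-fold lower. Tnfsf9, a co-stimulatory ligand also called 4-1BB ligand, was at 51.2 and 47.6, and its receptor Tnfrsf9 at 26.95 and 23.46, 1.149-fold lower. Tnfsf13, the B-cell factor APRIL, was at 104.8 and 104.0, and Tnfrsf17, a receptor for it, at 34.5 and 31.5. In these 3 pairs both partners were lower on the OGD array, the ligands by 1.198-fold, 1.08-fold and 1.01-fold. The last, Tnfsf13, was close to equal and turned sign with loess scaling. Among other pairs with both partners measured, directions were mixed. Il15, Il3 and Il11 were lower while Il2rg, Il3ra and Il11ra1, in that order, were higher. Both partners were higher for Tnf with Tnfrsf1a, Il33 with Il1rl1, Il4 with Il4r or Il2rg, and Il13 with Il4r. Il11 and its other receptor chain Il6st were both lower. Il24 was lower and Il20rb equal.

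The remaining TNF receptors lay within 1.14-fold. Cd40, the co-stimulatory receptor found on activated microglia, was at 87.3 and 87.9. Tnfrsf21, the death receptor DR6, was at 40.6 and 35.7, 1.13-fold lower, and Ltbr, the lymphotoxin beta receptor, at 55.8 and 50.9, 1.096-fold lower. Tnfrsf4, also called OX40, was at 59.2 and 65.5, 1.11-fold higher. Fas, the death receptor for Fas ligand, had 3 probe sets, all under the floor, between 4.72 and 6.52. The ligands Faslg, Cd40lg, Lta, Ltb, Tnfsf4, Tnfsf10 and Tnfsf11 were also under the floor on both arrays.

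Il17b was the only ligand past 1.2-fold. It encodes a member of the interleukin-17 family and was at 29.6 at rest and 37.7 after OGD, 1.27-fold higher, in its only probe set. The receptor chains of this family were close to equal: Il17ra, the shared chain, was at 86.4 and 90.1, Il17rc at 46.9 and 43.5, and Il17re at 30.6 and 30.3. In the interleukin-10 family Il10 itself was under the floor at 4.90 on both arrays, and Il10ra, its binding chain, had 31.0 on both arrays in 1 probe set and 20.4 and 21.1 in another. Exactly equal values were found in 12 of the 112 member probe sets (10.7%), beside 8.70% of all non-control probe sets, so an equal value cannot be read as an unchanged level. Il3 was above the floor at rest only, at 20.7 and 16.1, and was at least 1.06-fold lower.

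**Figure D3:**
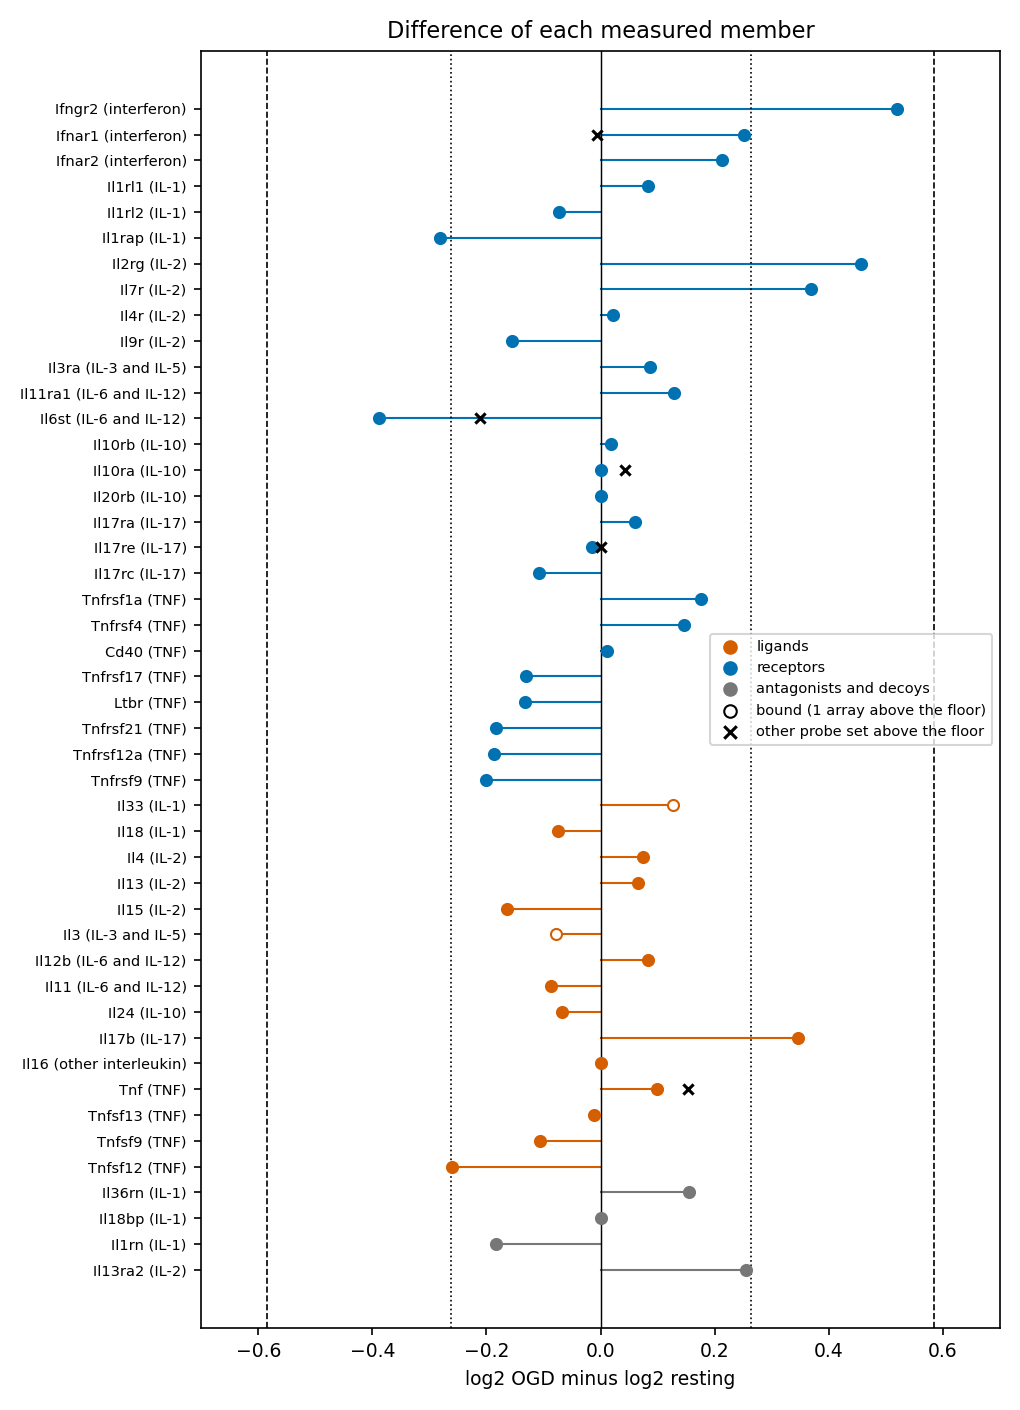
Log2 OGD minus log2 resting for each of the 46 measured members, grouped into receptors, ligands, and antagonists and decoys, and by family. Filled circles are the brightest probe set, open circles are bounds, crosses are other probe sets above the floor, dotted lines mark 1.2-fold and dashed lines 1.5-fold. No circle reaches a dashed line, and Ifngr2 at 0.52 and Il6st at -0.39 lie farthest from 0.

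Ligands were then set beside their receptors in 40 textbook pairs, a list written after the values were seen. Both partners were measured in 13 pairs, the receptor alone in 16, the ligand alone in 2 and neither in 9. Genes such as Il2rg and Il10 stand in several pairs, so the pairs are not separate cases. The counts restate the measured shares above, 64.3% of receptors and 41.7% of ligands, and are no further result. Pairs with the receptor alone included Ifng with Ifngr2, Ifnb1 with Ifnar1 and Ifnar2, Il7 with Il7r, Cd40lg with Cd40, and Il10 with Il10ra and Il10rb. The ligand alone was measured for Tnf with Tnfrsf1b and for Il15 with Il2rb.

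Genes that act downstream of these receptors had values of the same order. Of the genes for JAK kinases, STAT factors and their inhibitors 21 of 24 were measured, with 9 higher, 11 lower and a median of -0.019. Past 1.2-fold were 0 higher and 2 lower, 9.52% of those measured, beside 7.53% of all measured genes. Jak2, the kinase used by the interferon gamma receptor among others, was at 38.0 at rest and 27.3 after OGD, 1.39-fold lower. Tyk2, a kinase of type I interferon and interleukin-12 receptors, was at 46.7 and 37.7, 1.24-fold lower, and Jak3, the partner of the common gamma chain, at 32.2 and 27.2, 1.18-fold lower. Chains of receptors that signal through these kinases lay on both sides. Among them Ifngr2, Ifnar1, Ifnar2 and Il2rg were higher and Il6st and Il9r lower. The fourth kinase, Jak1, was at 100.2 and 95.9.

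Of the adaptors of TNF receptors 14 of 18 were measured, with 7 higher, 7 lower and a median of 0.0081. Past 1.2-fold were 2 higher and 0 lower, 14.3% of those measured, beside 7.53% of all measured genes. Tank, a TRAF-binding regulator, was at 23.3 and 33.0, 1.42-fold higher, and Cyld, a deubiquitinase that restrains NF-kB signalling, was at 66.2 and 81.1, 1.23-fold higher, with 0.26 in its other probe set. Map3k14, the NF-kB-inducing kinase, was at 31.5 and 37.3, 1.18-fold higher. Of the adaptors of interleukin-1 receptors 9 of 14 were measured, with 7 higher, 1 lower and a median of 0.041, and 0 past 1.2-fold. Among all measured genes 42.8% were higher. Casp1, the protease that matures interleukin-1 beta and interleukin-18, was 1.11-fold higher. Irak1 had a difference of 0.13 and, in its other probe set, of -0.12, and Peli1 0.056 and -0.060. Other cytokines and their receptors had 12 of 24 measured, with 6 higher, 6 lower and a median of 0.0078. Past 1.2-fold were 1 higher and 0 lower, 8.33% of those measured, beside the same 7.53%. The stem cell factor gene Kitlg was at 53.5 and 64.4, 1.203-fold higher, with its other 3 probe sets under the floor. Its difference was 0.069 averaged over the 4 probe sets, 3 of them set to the floor, and 0.23 with a pseudocount. Both are inside the 1.2-fold line. Cntfr, a receptor chain that works with gp130, was 1.15-fold lower, and Csf1r, the receptor on which microglial survival depends, was at 21.9 and 19.3, at least 1.11-fold lower.

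**Figure D4:**
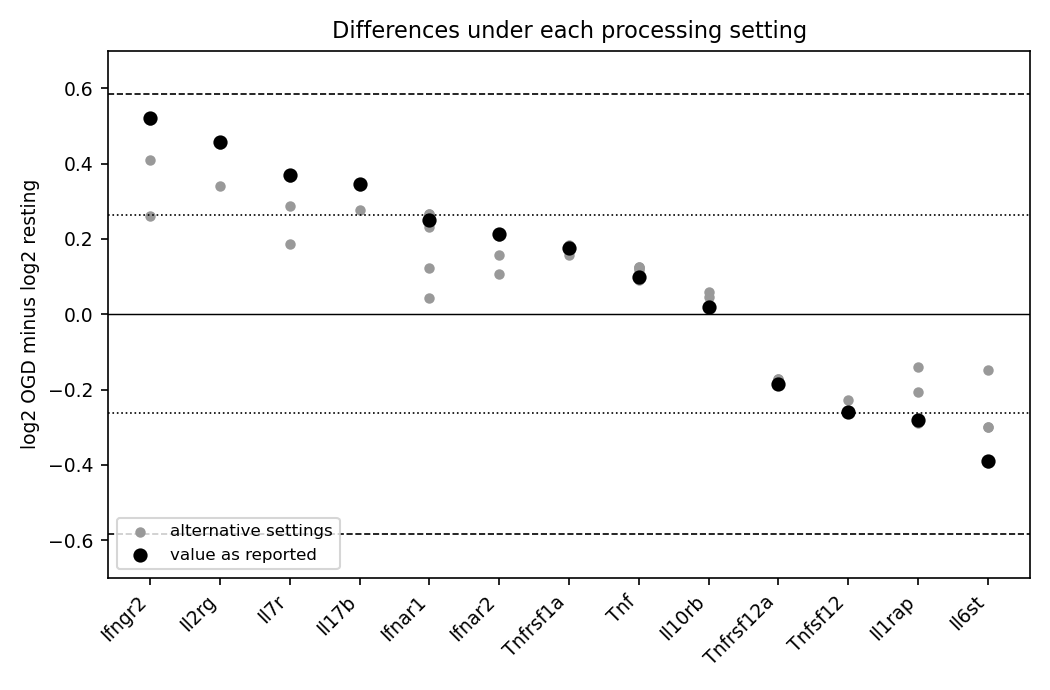
Log2 OGD minus log2 resting of 13 members as reported (black) and under each alternative in processing (grey), with dotted lines at 1.2-fold and dashed lines at 1.5-fold. No point of these members lies beyond 1.5-fold, each member kept its sign, and the grey points of Ifngr2 reach down to 0.26, those of Ifnar1 to 0.043 and those of Il6st up to -0.15.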

How the data were processed

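The deposited values are intensities, 1 linear value per probe set and array of an Affymetrix rat array, per the labels' protocols made with oligo(dT)-primed, biotinylated targets. How the authors summarised and scaled them is not given in the sources used here. A shift shared by most genes could be hidden by them. Of 31099 probe sets 57 were array controls, and 20826 of the others named 1 gene. Symbols were updated by Entrez ID to RefSeq (GRCr8), which changed 0 member symbols. Each gene was represented by its brightest probe set over both arrays, with a floor at the 50th percentile of each array. With 1 array per group no test is possible, and the number of arrays limits the precision; genes were counted at 1.5-fold and 1.2-fold. The only error estimate was the SD between probe sets of a gene, 0.147 (log2) over 1902 genes, which leaves out the spread between cultures.

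Named were the 10 largest member differences in each direction, up to 4 bounds in each direction, the 10 brightest members, the interferon receptor chains, a set of well-known cytokines and receptors, members whose measured probe sets disagreed by 1.1-fold or more in each direction (0 genes), and the 3 largest of each pathway list. Other members are named to complete a family, a choice made with their values in view. The kappa B consensus replaced a narrower form that had been searched first. The members, lists and thresholds were chosen with earlier results of these data known. The calculation was tested on simulated arrays. Python 3.11.15, pandas 2.3.3 and statsmodels 0.14.6 were used. Alternatives covered the floor, scaling, choice of probe set, pseudocount and threshold.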

Additional observations from a re-analysis of the deposited data

How the results depend on the processing

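The floor changed most. With a floor at the 30th percentile 2 members passed 1.5-fold (Il1r2 at 0.69 and Il12a at 0.66, both dimmer than the floor used above), 8 were higher and 5 lower past 1.2-fold, 26 ligands were measured, and the medians were 0.054 for ligands and 0.032 for all members. Without a floor the counts were 2 past 1.5-fold, 12 higher and 6 lower past 1.2-fold, 36 ligands and 42 receptors, with a ligand median of 0.067 and 0.070 for other cytokines and receptors. With a floor at the 70th percentile 0 were higher and 0 lower past 1.2-fold, 6 ligands and 11 receptors were measured, the ligand median was -0.090, and the medians were -0.052 for JAK, STAT and SOCS genes, 0.093 for interleukin-1 receptor adaptors and 0.074 for other cytokines and receptors. These settings change which genes are counted. The mean over probe sets, taken after values under the floor were set to it, gave 2 higher and 0 lower past 1.2-fold. The pseudocount gave 1 lower. For other cytokines and receptors the median was 0.065 with genes above the floor on both arrays and -0.044 without probe sets marked as shared; the cause was not tested. Centring, quantile and loess scaling kept every member count within 1.5 times. At 2-fold 0 members passed. Of 437 values of named genes under alternatives 429 moved by less than the SD between probe sets, and 8 by more. The sign turned for Tnfsf13 with loess and for Peli1 with the mean over probe sets or with every probe set, both close to 0. Past 1.2-fold were 9.60% of all genes and 20.3% of members with the 30th percentile floor, 5.195% and 0% with the 70th, 11.2% and 21.2% without a floor, and 4.77% and 10.9% with the pseudocount. Past 1.5-fold were 0.312% of all genes with the 30th percentile floor and 0.408% without a floor. No paired analysis was possible because each group has 1 array.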

Other observations

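The members past 1.2-fold all had a mean intensity under 60. Among measured genes with a mean intensity up to 30, 4 of 18 members (22.2%) passed 1.2-fold, beside 10.2% of 1961 genes. Between 30 and 60 it was 2 of 16 members (12.5%), beside 10.4% of 3004 genes, and between 60 and 120 it was 0 of 11, beside 5.08% of 2184. Only Il10rb was brighter among the members.

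Under the floor the largest differences as deposited were those of Il1r2, the decoy receptor for interleukin-1, with 9.04 at rest and 16.03 after OGD, and of Il12a, the p35 subunit of interleukin-12, with 9.59 and 15.7. Both stayed below the median probe set of their array and are given no fold.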
